A study of Homo sapiens with 15 samples.

Results

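The collagen prolyl and lysyl hydroxylases are 7 genes: P4HA1, P4HA2 and P4HA3, which encode the catalytic alpha subunits of prolyl 4-hydroxylase, P4HB, which encodes its beta subunit, and PLOD1, PLOD2 and PLOD3, which encode the lysyl hydroxylases. They were chosen by name, as the probe sets that the platform's probe table pairs with these symbols alone, and all 7 of them were found among the 18377 genes measured. For each gene the probe set with the highest mean over the 15 arrays was used, a choice that concerned P4HB alone, which had 2. All 7 genes passed the filter on dim signal on every array, which left 16005 genes tested.

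RNA came from A549, a human lung adenocarcinoma cell line, with 1 Affymetrix whole-transcript array for each of 15 cultures. In 3 groups the cells received 1 of 3 compounds at 10 µM, namely BB2-125, BB2-162 and BB2-282, code-named molecules that the submitters describe as transcriptional inhibitors aimed at HIF signalling. Hypoxia began 6 h later, in a pouch with a gas pack, and lasted 42 h. A hypoxic vehicle group was handled the same way without compound, and a normoxic vehicle group stayed in normal oxygen; all 5 groups, of 3 cultures each, contained 0.1% DMSO. No array held a compound in normoxia, so an effect on the hypoxic response and a general effect of a compound cannot be told apart, and each culture is labelled a biological replicate, with nothing more on how cultures were separated.

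Both enzyme families work on collagen chains inside the endoplasmic reticulum, before the triple helix closes. Prolyl 4-hydroxylase makes the hydroxyproline that holds the helix stable at body temperature, and lysyl hydroxylases make the hydroxylysine that carries sugars and takes part in cross-links between collagen molecules. The alpha subunits and the lysyl hydroxylases use molecular oxygen, 2-oxoglutarate, iron and ascorbate. P4HA1, P4HA2 and PLOD2 are known targets of hypoxia-inducible factor (HIF), the transcription factor of the low-oxygen response, and in lung tumours PLOD2 is known for its part in a stiff, cross-linked matrix.

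HIF binds DNA at a short core, ACGTG or GCGTG, so the bases in front of the start site were read from RefSeq's promoter table (build GRCh38.p14), which matched 6 of the 7 genes. A single window, the first listed, was read for each gene. Each window held the 250 bases before the start site, and both motifs were searched on both strands. The 3 genes with the largest hypoxic rise are shown with PLOD1, which fell. Capitals mark the motifs, as written or in reverse complement.
P4HA1 (chr10:73096867-73097116, minus strand): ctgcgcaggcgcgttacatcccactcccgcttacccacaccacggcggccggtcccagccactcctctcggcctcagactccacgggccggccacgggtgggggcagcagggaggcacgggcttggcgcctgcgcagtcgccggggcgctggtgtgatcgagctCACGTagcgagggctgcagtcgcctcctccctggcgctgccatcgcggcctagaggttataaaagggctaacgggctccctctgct
P4HA2 (chr5:132227092-132227341, minus strand): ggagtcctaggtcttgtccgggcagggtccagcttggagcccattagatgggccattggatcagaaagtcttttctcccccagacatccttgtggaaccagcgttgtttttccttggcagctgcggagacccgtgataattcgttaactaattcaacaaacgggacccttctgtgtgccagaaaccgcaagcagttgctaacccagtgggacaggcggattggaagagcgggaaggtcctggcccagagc
PLOD2 (chr3:146161185-146161434, minus strand): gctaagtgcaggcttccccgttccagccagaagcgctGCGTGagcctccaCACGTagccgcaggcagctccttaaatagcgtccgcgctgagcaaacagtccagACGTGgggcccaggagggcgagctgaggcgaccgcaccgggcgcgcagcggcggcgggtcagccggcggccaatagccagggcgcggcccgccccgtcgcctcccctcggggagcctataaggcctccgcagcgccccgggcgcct
PLOD1 (chr1:11934467-11934716, plus strand): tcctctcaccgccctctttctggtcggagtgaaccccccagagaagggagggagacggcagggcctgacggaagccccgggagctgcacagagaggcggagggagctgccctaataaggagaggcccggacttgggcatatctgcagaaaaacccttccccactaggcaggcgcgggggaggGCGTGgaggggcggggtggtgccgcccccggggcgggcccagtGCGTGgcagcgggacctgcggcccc

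PLOD2 held ACGTG at 2 places and GCGTG at 1, and P4HA1 held ACGTG once. PLOD1 held GCGTG at 2 places and P4HB held it once, while the windows of P4HA2 and PLOD3 held neither motif. ACGTG was found in 18.5% of the 35116 windows of this length in the table, GCGTG in 32.2% and either of them in 43.2%. These matches describe the letters in the windows alone, and any other start site of a gene was not searched.

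The 15 arrays had median intensities of 74.91 to 84.6. The array farthest from its own group was BB2-162 replicate 1: its log2 values differed from the group means by 0.221 (root mean square), and those of the other 14 arrays by 0.094 to 0.163. It was the highest array of its group for each of the 7 hydroxylase genes, so the values of these genes with BB2-162, and the list counts, are also given without it. All 7 epithelial markers passed the filter. Each lay above the array median in normoxia, and all but EPCAM did so in the hypoxic groups. Their summed intensity was 20962.8 to 23438.7 with BB2-125, 16732.5 to 21183.2 with BB2-162 and 16146.1 to 18821.9 with BB2-282. It was 18335 to 19936.5 in the hypoxic vehicle and 23958.6 to 25590.2 in the normoxic vehicle. Of 9 fibroblast markers 5 passed, among them COL1A1, COL1A2 and COL3A1, which lay above the array median in every group, and PDGFRA, DCN, LUM and FAP did not. Passing does not tell cell types apart here, since 6 of 7 alveolar type 2, 6 of 7 endothelial and 4 of 7 leukocyte markers passed too. Of these, SFTPD, ABCA3 and CLDN5 alone lay above the array median. The summed intensity of the fibroblast list was 526.5 to 562.5 with BB2-125, 568.4 to 666.1 with BB2-162, 570.8 to 609.1 with BB2-282, 496.2 to 570.6 in the hypoxic vehicle and 518.2 to 547.5 in the normoxic vehicle.

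Hypoxia against normoxia asks how these genes differed between hypoxic and normoxic cultures without compound. Low oxygen came together with the pouch and gas pack, and their parts cannot be told apart. P4HA1 rose 5.69-fold, P4HA2 4.51-fold, PLOD2 2.47-fold and P4HA3 1.41-fold, PLOD1 fell to 0.676 of its normoxic level, and P4HB and PLOD3 did not pass the test. Thus 4 of the 7 rose, beside 28.2% of all genes tested, and 1 fell, beside 29.4% (57.5% in either direction). Their median change was 0.50 on the log2 scale, against 0.09 over all genes. A call means a Benjamini-Hochberg adjusted p under 0.05 over the 16005 genes. Errors after ± are, unless marked SD, standard errors of limma's log2 change, from a spread shared by all 5 groups of 3 arrays. They do not show the spread of the groups compared: P4HA1 had an SD of 0.44 with BB2-162 and 0.047 with BB2-282.

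P4HA1, the alpha subunit that most cells rely on, had intensities of 1619, 1833 and 1343 in the hypoxic vehicle, against 276, 305 and 257 in normoxia. Every hypoxic array lay far above every normoxic one, and the change was 2.51 ± 0.17 (adjusted p = 2.95e-10). It ranked 74th from the top among the 16005 changes. P4HA2, the alternative alpha subunit, had 1397, 1209 and 1302 in the hypoxic vehicle, against 283, 290 and 292 in normoxia. These groups did not overlap either, and the change was 2.17 ± 0.11 (adjusted p = 8.88e-12). P4HA3, the third alpha subunit, had 521, 678 and 463 in the hypoxic vehicle, against 372, 404 and 384 in normoxia, a change of 0.50 ± 0.13 (adjusted p = 0.00221) in which replicate 2 of the hypoxic vehicle was highest.

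P4HB encodes protein disulfide isomerase, which keeps the alpha subunits soluble and also works alone as a folding enzyme. It had 4523, 4847 and 4421 in the hypoxic vehicle, against 5086, 5305 and 5439 in normoxia. The groups did not overlap, but the change of -0.20 ± 0.14 did not pass (adjusted p = 0.214). The other probe set of P4HB ran the opposite way, with 4606, 4113 and 5025 in the hypoxic vehicle against 3629, 4568 and 3858 in normoxia. Its change of 0.19 ± 0.11 did not pass either (adjusted p = 0.127), so no direction was settled for P4HB, and quantile normalization called the first probe set lower (-0.36, adjusted p = 0.0318).

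PLOD2 encodes the lysyl hydroxylase that acts on the ends of collagen chains, where hydroxylysine leads to the more stable kind of cross-link. It had 4931, 5553 and 4288 in the hypoxic vehicle, against 1944, 2102 and 1908 in normoxia, and the change was 1.30 ± 0.12 (adjusted p = 3.75e-08). PLOD1, which acts on lysines within the helix, moved the other way: it had 456, 438 and 424 in the hypoxic vehicle, against 597, 688 and 665 in normoxia. Its arrays did not overlap between the groups, and the change was -0.56 ± 0.12 (adjusted p = 0.000449). PLOD3, which also transfers sugars onto hydroxylysine, had 462, 473 and 414 in the hypoxic vehicle, against 445, 439 and 462 in normoxia. Its groups overlapped, and the 95% interval of its change ran from -0.25 to 0.25 (adjusted p = 0.999).

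**Figure D1:**
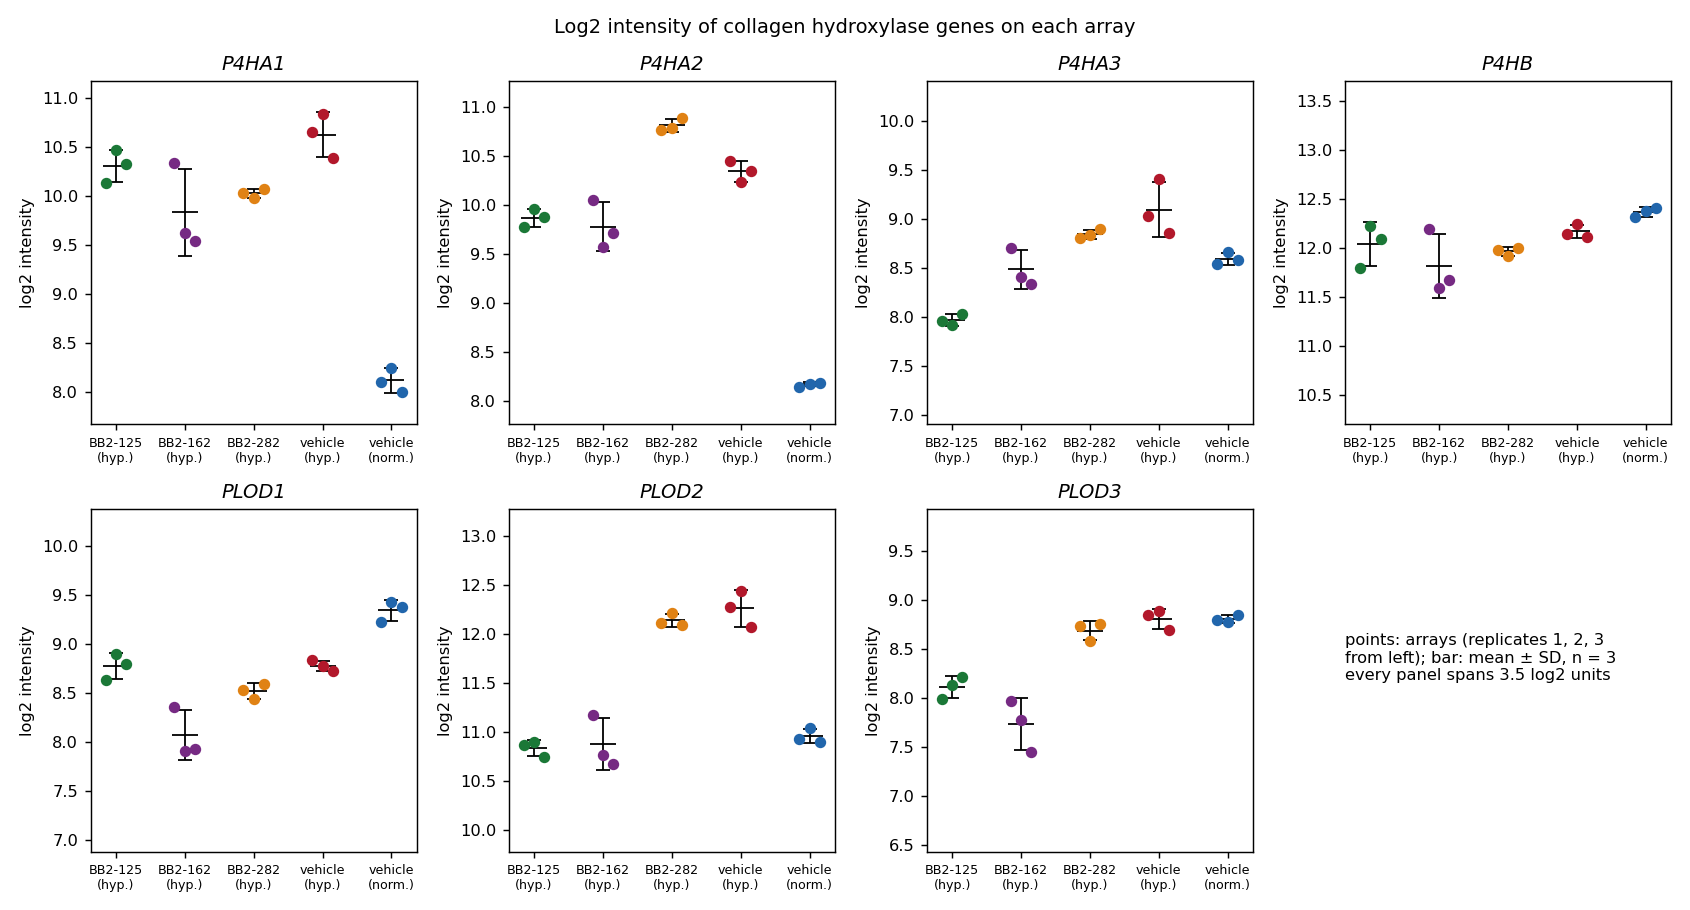
Log2 intensity (vertical axis) of each hydroxylase gene on the 15 arrays, by group along the horizontal axis; points are arrays, and bars are the mean ± SD of 3 arrays. P4HA1 and P4HA2 stay above normoxia in each hypoxic group, whereas PLOD2 with BB2-125 (mean 10.83) and BB2-162 (10.87) lies just below its normoxic mean (10.95).

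Differences between genes within an array remove any shift that an array's probe sets share. PLOD2 minus PLOD1 averaged 3.48 ± 0.17 in the hypoxic vehicle, against 1.61 ± 0.09 in normoxia (log2, SD, n = 3), a shift of 1.87. PLOD2 minus PLOD3 averaged 3.45 ± 0.09 in the hypoxic vehicle and 2.14 ± 0.11 in normoxia, a shift of 1.30. The alpha subunit gene P4HA1 moved against the beta subunit gene in the same way: P4HA1 minus P4HB averaged -1.54 ± 0.16 in the hypoxic vehicle and -4.24 ± 0.15 in normoxia. Each of these 3 pairs parted the groups fully, with an exact two-sided permutation p of 0.1, the smallest that 3 against 3 arrays allow. P4HA2 minus P4HA1 averaged -0.29 ± 0.29 in the hypoxic vehicle and 0.05 ± 0.13 in normoxia, with overlapping groups (exact two-sided permutation p = 0.2).

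The first compound, BB2-125, was set against the hypoxic vehicle. PLOD2 fell to 0.372 of the vehicle level, P4HA3 to 0.458, PLOD3 to 0.617 and P4HA2 to 0.72. P4HA1, P4HB and PLOD1 did not pass. The 4 falls among 7 genes stand beside 15% of all genes tested that were lower (28.4% in either direction), and the median change was -0.47 against 0.025 over all genes.

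PLOD2 had 1864, 1897 and 1708 with BB2-125, against 4931, 5553 and 4288 in the hypoxic vehicle, a change of -1.43 ± 0.12 (adjusted p = 1.03e-07). That change ranked 116th from the bottom of the 16005. P4HA3 had 248, 241 and 262 with BB2-125, against 521, 678 and 463 in the hypoxic vehicle, a change of -1.13 ± 0.13 (adjusted p = 1.9e-06). Neither gene's groups overlapped, nor did those of PLOD3, which had 254, 281 and 298 with BB2-125 against 462, 473 and 414 in the hypoxic vehicle (-0.70 ± 0.12, adjusted p = 0.000175). P4HA2 fell less, to 878, 998 and 939 with BB2-125, against 1397, 1209 and 1302 in the hypoxic vehicle (-0.47 ± 0.11, adjusted p = 0.00329).

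P4HA1 had 1128, 1417 and 1286 with BB2-125, against 1619, 1833 and 1343 in the hypoxic vehicle, and the groups overlapped. Its change of -0.32 ± 0.17 did not pass (adjusted p = 0.18). In this comparison cultures of the same replicate number deviated together; with that number as a block over all 15 arrays P4HA1 again did not pass (adjusted p = 0.181). A fit of the 2 groups alone with the block, added after the data were seen, called it lower (adjusted p = 0.0398), as did array weights (-0.31, adjusted p = 0.0335). PLOD1 had 398, 476 and 445 with BB2-125, around the 456, 438 and 424 of the hypoxic vehicle, and the 95% interval of its change ran from -0.25 to 0.25. P4HB changed by -0.13 ± 0.14 (adjusted p = 0.55), and its other probe set by -0.15 ± 0.11 (adjusted p = 0.331).

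With BB2-162 all but P4HB fell. Against the hypoxic vehicle PLOD2 fell to 0.382 of the vehicle level, PLOD3 to 0.474, P4HA1 to 0.577, PLOD1 to 0.611, P4HA3 to 0.655 and P4HA2 to 0.677. The 6 falls among 7 genes stand beside 20.4% of all genes tested that were lower (36.1% in either direction), and the median change was -0.71 against 0.06 over all genes. Without BB2-162 replicate 1 all 7 genes were lower.

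PLOD2 had 2307, 1740 and 1633 with BB2-162, against 4931, 5553 and 4288 in the hypoxic vehicle (-1.39 ± 0.12, adjusted p = 1.7e-07, and -1.54 without BB2-162 replicate 1). PLOD3 had 251, 219 and 175 with BB2-162, against 462, 473 and 414 in the hypoxic vehicle (-1.08 ± 0.12, adjusted p = 1.83e-06, and -1.20 without that replicate). Neither gene's groups overlapped. PLOD1 had 329, 241 and 243 with BB2-162, against 456, 438 and 424 in the hypoxic vehicle (-0.71 ± 0.12, adjusted p = 0.000139, and -0.86 without that replicate), so the lysyl hydroxylase gene that hypoxia had lowered was lower still.

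P4HA1 had 1298, 790 and 745 with BB2-162, against 1619, 1833 and 1343 in the hypoxic vehicle (-0.79 ± 0.17, adjusted p = 0.00124, and -1.05 without BB2-162 replicate 1). Replicate 1 lay just under the lowest vehicle array. P4HA2 had 1063, 761 and 842 with BB2-162, against 1397, 1209 and 1302 in the hypoxic vehicle (-0.56 ± 0.11, adjusted p = 0.000789, and -0.70 without that replicate). P4HA3 changed by -0.61 ± 0.13 (adjusted p = 0.00102), and by -0.72 without it. P4HB had 4662, 3072 and 3257 with BB2-162, against 4523, 4847 and 4421 in the hypoxic vehicle, and narrowly missed the threshold (-0.35 ± 0.14, adjusted p = 0.0511). Without BB2-162 replicate 1 it was called (-0.54, adjusted p = 0.00112), and its other probe set was called with all arrays (-0.36 ± 0.11, adjusted p = 0.0143).

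With BB2-282 the test against the hypoxic vehicle called 2 of the 7 genes, beside 13.6% of all genes. P4HA2 rose 1.38-fold and P4HA1 fell to 0.659 of the vehicle level, and the other 5 genes did not pass. That is 1 gene higher, beside 5.65% of all genes tested, and 1 lower, beside 7.94%, with a median change of -0.20 against 0.015 over all genes. P4HA2 had 1743, 1764 and 1891 with BB2-282, against 1397, 1209 and 1302 in the hypoxic vehicle (0.47 ± 0.11, adjusted p = 0.0088). P4HA1 had 1045, 1012 and 1080 with BB2-282, against 1619, 1833 and 1343 in the hypoxic vehicle (-0.60 ± 0.17, adjusted p = 0.0212). Neither gene's groups overlapped. The call of P4HA1 ended without hypoxic vehicle replicate 1 (adjusted p = 0.0767), hypoxic vehicle replicate 2 (0.108), BB2-282 replicate 1 (0.0607) or BB2-282 replicate 2 (0.0776).

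PLOD2 had 4431, 4741 and 4346 with BB2-282, within the 4931, 5553 and 4288 of the hypoxic vehicle. The 95% interval of its change ran from -0.38 to 0.14 on the log2 scale, and that of PLOD3 from -0.37 to 0.13. P4HA3 changed by -0.25 ± 0.13 (adjusted p = 0.221), PLOD1 by -0.26 ± 0.12 (adjusted p = 0.176) and P4HB by -0.20 ± 0.14 (adjusted p = 0.406). With array weights PLOD1 was called lower (-0.30, adjusted p = 0.0135).

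The genes also changed unequally under the compounds. PLOD2 minus P4HA1 averaged 0.52 ± 0.18 with BB2-125, 1.03 ± 0.18 with BB2-162 and 2.11 ± 0.11 with BB2-282, against 1.63 ± 0.04 in the hypoxic vehicle (log2, SD, n = 3). The shift was -1.11 for BB2-125, -0.59 for BB2-162 (-0.49 without its replicate 1) and 0.48 for BB2-282. P4HA2 minus P4HA1 averaged 0.78 ± 0.04 with BB2-282, against -0.29 ± 0.29 in the hypoxic vehicle. In each of these 4 contrasts, which were chosen after the values were seen, the groups did not overlap (exact two-sided permutation p = 0.1, the smallest possible).

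**Figure D2:**
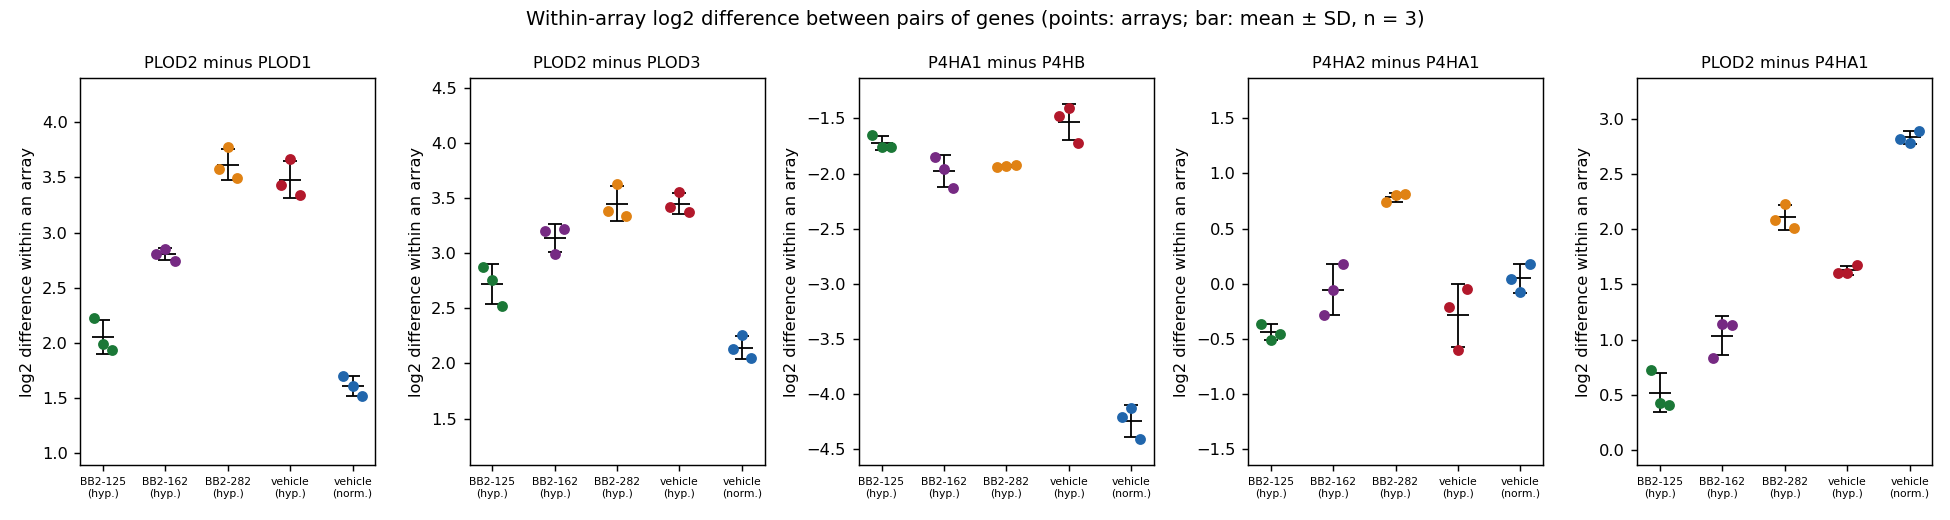
Within-array log2 difference (vertical axis) between 5 pairs of hydroxylase genes, by group along the horizontal axis; points are arrays and bars the mean ± SD of 3. PLOD2 minus PLOD1 is 3.48 in the hypoxic vehicle and 1.61 in normoxia, and P4HA2 minus P4HA1 is highest with BB2-282 (0.78).

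Each compound against the normoxic vehicle asks where hypoxic, treated cells ended up. P4HA1 and P4HA2 were above normoxia under all 3 compounds. P4HA1 was higher by 2.19 ± 0.17 with BB2-125, by 1.71 ± 0.17 with BB2-162 and by 1.91 ± 0.17 with BB2-282, and P4HA2 by 1.70 ± 0.11, 1.61 ± 0.11 and 2.64 ± 0.11 in the same order. The highest adjusted p among these 6 changes was 4.14e-08. Without BB2-162 replicate 1 the values with BB2-162 were 1.46 for P4HA1 and 1.47 for P4HA2.

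PLOD2 was not distinguishable from normoxia with BB2-125 (-0.12 ± 0.12, adjusted p = 0.389) or BB2-162 (-0.08 ± 0.12, adjusted p = 0.542), with 95% intervals from -0.38 to 0.14 and from -0.34 to 0.18, although its 3 arrays with BB2-125 all lay below the 3 normoxic ones. Without BB2-162 replicate 1 the second value was -0.23 (adjusted p = 0.06). With BB2-282 PLOD2 was 2.27-fold above normoxia (1.18 ± 0.12, adjusted p = 1.17e-07). PLOD3, which had not passed the test in hypoxia alone, was below normoxia with BB2-125 (-0.70 ± 0.12, adjusted p = 5.45e-05) and BB2-162 (-1.08 ± 0.12, adjusted p = 2.13e-07, and -1.20 without BB2-162 replicate 1). PLOD1 was below normoxia by -0.56 ± 0.12 with BB2-125, by -1.28 ± 0.12 with BB2-162 (-1.42 without its replicate 1) and by -0.82 ± 0.12 with BB2-282, each called. P4HA3 was below normoxia with BB2-125 (-0.63 ± 0.13, adjusted p = 0.000291) and did not pass with BB2-162 (-0.11 ± 0.13, and -0.22 without its replicate 1) or BB2-282 (0.25 ± 0.13, adjusted p = 0.0894). With BB2-282 it was called higher after quantile normalization (0.39, adjusted p = 0.00467), with array weights (0.0213) and in a fit of the 2 groups alone (0.0196).

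P4HB was lower than in normoxia with BB2-125 (-0.33 ± 0.14, adjusted p = 0.0427), BB2-162 (-0.55 ± 0.14, adjusted p = 0.00143, and -0.74 without its replicate 1) and BB2-282 (-0.40 ± 0.14, adjusted p = 0.0151). Its other probe set gave 0.04 with BB2-125, -0.16 with BB2-162 and 0.09 with BB2-282, and none of the 3 passed (lowest adjusted p = 0.161). The call with BB2-125 also ended with the replicate number as a block (adjusted p = 0.0585) and without normoxic vehicle replicate 1 (0.058), 2 (0.0908) or 3 (0.105), or BB2-125 replicate 1 (0.211) or 3 (0.0632). Against normoxia 2 genes were higher and 4 lower with BB2-125, beside 31.5% and 30.5% of all genes tested (62% in either direction). With BB2-162 the counts were 2 and 3, beside 42.4% and 34.4% (76.8% together), and with BB2-282 they were 3 and 2, beside 33.4% and 31.4% (64.8% together).

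**Figure D3:**
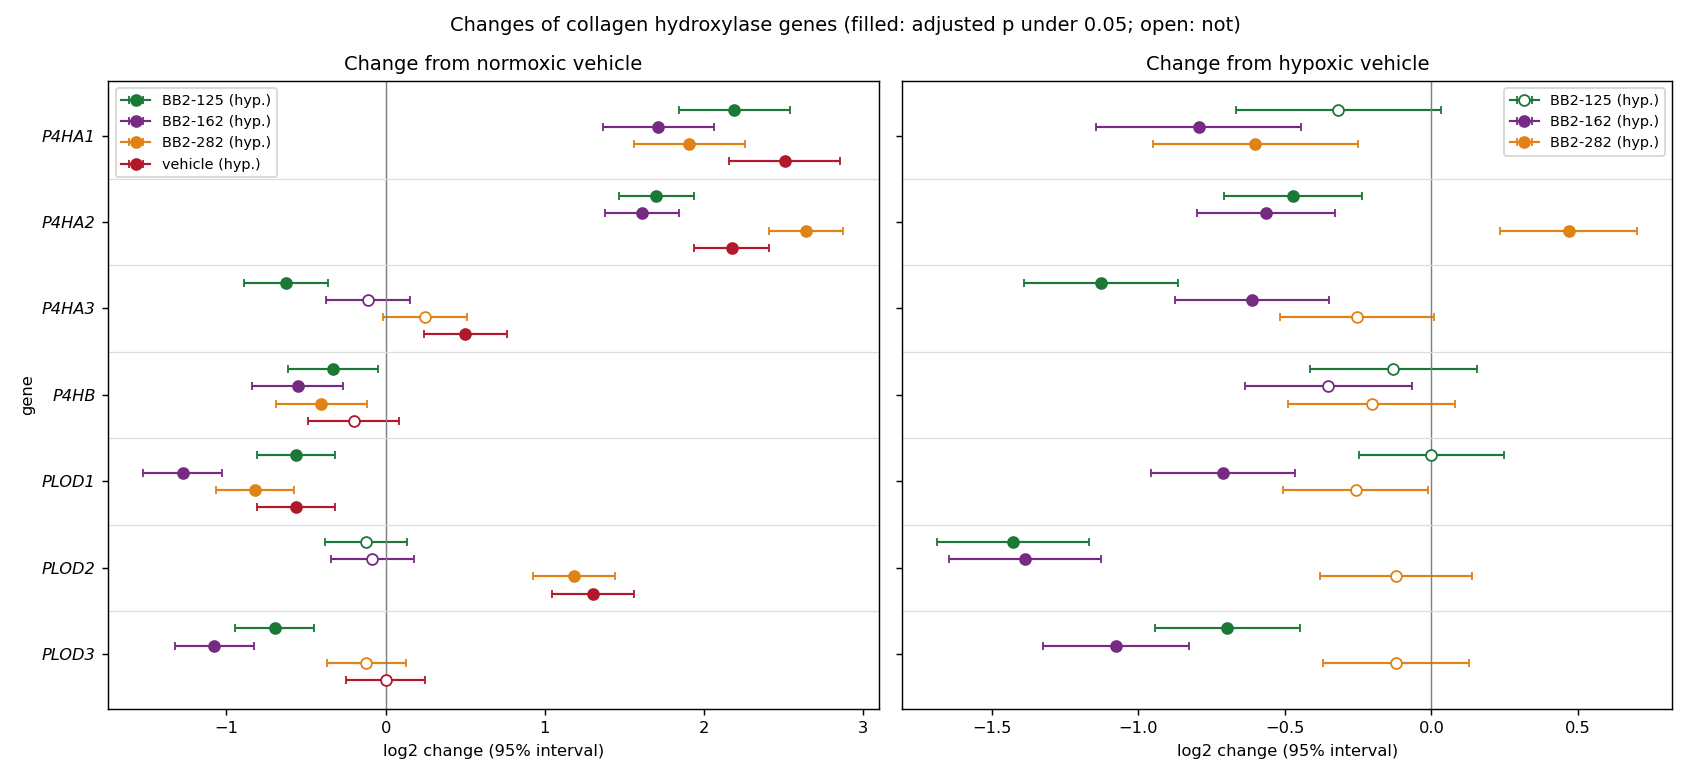
Log2 change (horizontal axis, with 95% intervals) of each hydroxylase gene against the normoxic vehicle (left) and the hypoxic vehicle (right), by group in colour; filled points passed the test. P4HA1 and P4HA2 lie right of 0 in the left panel in all 4 hypoxic groups, and PLOD2 lies at -1.43 with BB2-125, -1.39 with BB2-162 and -0.12 with BB2-282 in the right panel.

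The 3 pairs of compounds were compared at the same dose and time. The fit was that of all 15 arrays, so the vehicle arrays still entered the estimate of the spread. BB2-125 and BB2-162 gave PLOD2 levels that differed by -0.04 ± 0.12, with a 95% interval from -0.30 to 0.22 and the opposite sign (0.11) without BB2-162 replicate 1. Other members parted them: PLOD1 was higher with BB2-125 (0.71 ± 0.12, adjusted p = 0.000239), P4HA3 was lower with it (-0.52 ± 0.13, adjusted p = 0.00512), and P4HA1 (0.48 ± 0.17, adjusted p = 0.0421) and PLOD3 (0.38 ± 0.12, adjusted p = 0.024) were higher. These values were, without BB2-162 replicate 1, 0.86 for PLOD1, -0.41 for P4HA3, 0.73 for P4HA1 and 0.50 for PLOD3. That is 3 of 7 higher, beside 16.7% of all genes tested, and 1 lower, beside 9.43% (26.1% in either direction). The call of P4HA1, whose groups overlapped, ended after quantile normalization (0.31, adjusted p = 0.111). It also ended without BB2-125 replicate 2 (adjusted p = 0.134) or 3 (0.0929) or BB2-162 replicate 2 (0.159) or 3 (0.216). That of PLOD3 ended without BB2-125 replicate 2 (0.0608) or 3 (0.0912) or BB2-162 replicate 3 (0.24, adjusted p = 0.154). In a limma fit of these 2 groups alone, neither P4HA1 (adjusted p = 0.117) nor PLOD3 (adjusted p = 0.098) passed.

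BB2-282 stood apart from the other compounds in PLOD2 and P4HA2. PLOD2 was lower with BB2-125 than with BB2-282 by -1.31 ± 0.12 (adjusted p = 1.64e-07), and lower with BB2-162 than with BB2-282 by -1.27 ± 0.12 (adjusted p = 3.2e-07). P4HA2 was lower with BB2-125 by -0.94 ± 0.11 (adjusted p = 2.38e-06) and with BB2-162 by -1.03 ± 0.11 (adjusted p = 1.15e-06). PLOD3 and P4HA3 were lower too: by -0.58 ± 0.12 and -0.87 ± 0.13 with BB2-125, and by -0.96 ± 0.12 and -0.36 ± 0.13 with BB2-162. BB2-125 thus had 4 of 7 genes below BB2-282, beside 17.6% of all genes tested (36.3% in either direction). BB2-162 had 5 of 7 below BB2-282, beside 20.3% (35.8% in either direction), the fifth being PLOD1 (-0.45 ± 0.12, adjusted p = 0.00548). The values against BB2-282 were, when BB2-162 replicate 1 was left out, -1.42 for PLOD2, -1.17 for P4HA2, -1.07 for PLOD3, -0.47 for P4HA3 and -0.60 for PLOD1.

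The call of P4HA3 between BB2-162 and BB2-282 (adjusted p = 0.0327) ended without BB2-162 replicate 2 (0.101) or 3 (0.132) or BB2-282 replicate 1 (0.0546), 2 (0.0741) or 3 (0.0987). Without BB2-162 replicate 1, P4HA1 (-0.45, adjusted p = 0.00993) and P4HB (-0.33, adjusted p = 0.0247) were also lower with BB2-162 than with BB2-282, and P4HB was higher with BB2-125 than with BB2-162 (0.41, adjusted p = 0.0103). With all arrays P4HA1 did not pass between BB2-125 and BB2-282 (95% interval from -0.07 to 0.63) or between BB2-162 and BB2-282 (from -0.54 to 0.16). Array weights called both (0.32, adjusted p = 0.0123, and -0.34, adjusted p = 0.0372), and a fit of the 2 groups alone called the first (adjusted p = 0.0368). PLOD1, which did not pass between BB2-125 and BB2-282 (0.26 ± 0.12, adjusted p = 0.0996), was called by the same alternatives (0.00361 and 0.0452).

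Ordered by mean level, PLOD2 was highest in the hypoxic vehicle and with BB2-282, which were not distinguishable, followed by normoxia, BB2-162 and BB2-125, which were not distinguishable from each other. P4HA1 ran from the hypoxic vehicle through BB2-125, BB2-282 and BB2-162 to normoxia, and of these steps the last alone passed the test. A step joins neighbours alone, and groups further apart could differ. P4HA1 was called lower with BB2-162 (adjusted p = 0.00124) and BB2-282 (0.0212) than in the hypoxic vehicle. The second of these calls ended with some single arrays left out. For P4HA2 the order was BB2-282, hypoxic vehicle, BB2-125, BB2-162 and normoxia, and each step passed except that between BB2-125 and BB2-162. P4HA3 ran from the hypoxic vehicle through BB2-282, normoxia and BB2-162 to BB2-125, and only the last step passed. PLOD1 was highest in normoxia, then in the hypoxic vehicle, BB2-125, BB2-282 and BB2-162, with the first and the last step called. By the probe set used, P4HB was highest in normoxia, then in the hypoxic vehicle, BB2-125, BB2-282 and BB2-162, and no single step passed. Its other probe set placed the hypoxic vehicle above normoxia (0.19, adjusted p = 0.127), so this order is not settled. PLOD3 was level in the hypoxic vehicle and normoxia, followed by BB2-282, BB2-125 and BB2-162, and the steps from BB2-282 to BB2-125 and on to BB2-162 passed.

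The genes whose log2 values over the 15 arrays lay closest to each of the 5 hydroxylase genes called in hypoxia against normoxia, after centring each gene on its own mean, had a root mean square difference of 0.265 or less. They were picked as the 3 smallest differences for each gene, so lying below the median of all genes follows from the choice. PLOD2 was closest to GPR160 (0.16), STAC (0.161) and PLEKHA1 (0.174), beside a median of 0.717 over all genes. P4HA1 was closest to TMEM156 (0.206), FHL2 (0.248) and ZNF581 (0.265), and P4HA2 to MINDY2 (0.149), DNAJB2 (0.195) and POFUT2 (0.201), beside medians of 0.891 and 0.888. P4HA3 lay closest to ATP1B1 (0.107), UBA6 (0.137) and CDK17 (0.146), beside a median of 0.497. PLOD1 lay closest to APLP2 (0.08), HSP90B1 (0.087), which encodes the chaperone GRP94 of the endoplasmic reticulum, and TRMT5 (0.099), beside a median of 0.541. No 2 members shared a gene among these, and 3 picks for each leave little room for sharing.

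Genes that act before, beside or after the hydroxylases were taken from 6 lists drawn from textbook knowledge. The counts stand beside the shares of all genes tested: 28.2% higher and 29.4% lower in hypoxia, 13.3% and 15% with BB2-125, 15.7% and 20.4% with BB2-162, and 5.65% and 7.94% with BB2-282, each compound against the hypoxic vehicle. The shares with BB2-162 were 23.4% and 24.7% when its replicate 1 was left out. Of 13 tested folding and hydroxylation partners, 2 rose and 4 fell in hypoxia, with a median of -0.20, and the share of falls was close to that of all genes. FKBP7 (-1.50 ± 0.11), FKBP14 (-0.81 ± 0.14), both prolyl isomerases of the endoplasmic reticulum, and SERPINH1 (-1.21 ± 0.12), the collagen chaperone HSP47, fell, while P3H1 (0.37 ± 0.10), a prolyl 3-hydroxylase, rose. Against the hypoxic vehicle 3 rose and 1 fell with BB2-125, among them SERPINH1 (0.74 ± 0.12) and TMEM38B (0.63 ± 0.13) as rises and P3H1 (-0.44 ± 0.10) as the fall. With BB2-162, 2 rose and 3 fell, with P3H2, another prolyl 3-hydroxylase, at -1.74 ± 0.20, P3H1 at -0.35 ± 0.10 and CREB3L1, a transcription factor for collagen genes, at 0.46 ± 0.15; without BB2-162 replicate 1 the counts were 1 and 6, and P3H2 stood at -2.01. With BB2-282, 1 rose and 3 fell, the falls being TMEM38B (-0.81 ± 0.13), FKBP14 (-0.72 ± 0.14) and PPIB (-0.43 ± 0.11).

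Of 13 genes of procollagen export and processing, 5 rose and 2 fell in hypoxia, with SEC24D (1.89 ± 0.11), a coat protein of the vesicles that leave the endoplasmic reticulum, TRAM2 (1.45 ± 0.15), which takes part in collagen synthesis at that membrane, and PCOLCE (0.75 ± 0.09) as rises and PCOLCE2 (-0.77 ± 0.11) as a fall. TRAM2 fell by -2.46 ± 0.15 with BB2-125 and by -1.97 ± 0.15 with BB2-162. In all 5 of these genes fell with BB2-125 and 6 with BB2-162, among them BMP1 (-0.79 ± 0.15 and -0.89 ± 0.15), a procollagen C-proteinase, and SEC23A (-0.52 ± 0.11 and -0.74 ± 0.11). Leaving out BB2-162 replicate 1 gave 2 rises and 5 falls there, with TRAM2 at -2.08, BMP1 at -1.10 and SEC23A at -0.86. With BB2-282, limma called 0 of the 13, of which 1 had an unadjusted p under 0.05; BMP1 stood at 0.33 ± 0.15 (adjusted p = 0.169), PCOLCE2 at 0.21 ± 0.11 and SEC23A at -0.19 ± 0.11.

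Of 10 disulfide isomerases and oxidases, 3 rose and 5 fell in hypoxia. The list holds relatives of P4HB, and also ERO1A, ERO1B and PRDX4, which are not of its family. PDIA4 (-1.43 ± 0.09), PDIA6 (-1.01 ± 0.11) and TMX1 (-1.88 ± 0.15) fell, and ERO1A, which recharges protein disulfide isomerase, rose (1.75 ± 0.19). With BB2-125, 3 rose and 2 fell, with PDIA6 at 0.56 ± 0.11, PDIA4 at 0.42 ± 0.09 and PDIA5 at -0.47 ± 0.11. With BB2-162, 6 fell, including TMX1 (-1.49 ± 0.15), PRDX4 (-0.68 ± 0.09) and ERO1B (-0.79 ± 0.11), the last of which lay below the dim filter there. The median of this list was -0.47 with BB2-162, against 0.06 over all genes. The list had 1 rise, 7 falls and a median of -0.57 without BB2-162 replicate 1, with TMX1 at -1.74. With BB2-282, 3 fell: TMX1 (-0.71 ± 0.15), ERO1B (-0.44 ± 0.11) and PRDX4 (-0.28 ± 0.09).

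Of 11 other tested hydroxylases that use 2-oxoglutarate, 1 rose and 7 fell in hypoxia, with a median of -0.55 against 0.09 over all genes. JMJD6, a lysyl hydroxylase of nuclear proteins, rose (1.73 ± 0.11), and ASPH (-1.14 ± 0.12), PHYH (-1.30 ± 0.14) and RIOX2 (-1.22 ± 0.13) fell. With BB2-125, PHYH rose (0.47 ± 0.14) and P4HTM fell (-0.31 ± 0.10), and JMJD6 did not pass (0.21 ± 0.11). With BB2-162, 1 rose and 5 fell, with JMJD6 at 0.50 ± 0.11, TMLHE at -0.81 ± 0.13 and HIF1AN at -0.51 ± 0.13, and without BB2-162 replicate 1 the counts were 1 and 6. With BB2-282, limma called 0 of the 11, of which 2 had an unadjusted p under 0.05; TMLHE stood at -0.33 ± 0.13, PHYH at -0.33 ± 0.14 and ASPH at -0.21 ± 0.12.

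Of 8 genes of ascorbate transport and recycling, 4 rose and 3 fell in hypoxia. SLC2A3 (3.49 ± 0.10) and SLC2A1 (2.13 ± 0.11), glucose transporters that also carry dehydroascorbate, rose, whereas SLC23A1 (-1.27 ± 0.11), an ascorbate transporter, and TXNRD1 (-3.10 ± 0.11) fell. SLC23A1 fell further with each compound, by -0.55 ± 0.11 with BB2-125, by -0.51 ± 0.11 with BB2-162 and by -0.66 ± 0.11 with BB2-282. TXNRD1 rose with BB2-125 (1.16 ± 0.11) and BB2-282 (0.67 ± 0.11) and did not pass with BB2-162 (0.27 ± 0.11, adjusted p = 0.0608). SLC23A2 fell with BB2-125 (-0.90 ± 0.15) and BB2-282 (-0.65 ± 0.15) and did not pass with BB2-162 (-0.36 ± 0.15, adjusted p = 0.0629), and GLRX rose with BB2-125 (0.72 ± 0.14) and fell with BB2-282 (-0.86 ± 0.14). In all 3 rose and 3 fell with BB2-125, 1 fell with BB2-162, and 1 rose and 3 fell with BB2-282. The falls with BB2-162 numbered 3 without its replicate 1, SLC23A2 among them (-0.51, adjusted p = 0.00883).

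Of 18 tested collagen chain genes, the substrates of the hydroxylases, 6 rose and 3 fell in hypoxia, the rises close to the share of all genes and the falls below it. COL7A1 (0.93 ± 0.11) and COL6A2 (0.44 ± 0.09) rose, and COL12A1 (-2.02 ± 0.21) and COL4A6 (-0.54 ± 0.09) fell. With BB2-125, 4 fell, with COL7A1 at -0.88 ± 0.11, COL5A1 at -0.65 ± 0.12 and COL4A3 at -0.48 ± 0.10. With BB2-162, 1 rose and 2 fell: COL1A1 (0.33 ± 0.10), COL5A2 (-0.75 ± 0.09) and COL4A3 (-0.29 ± 0.10). Leaving out its replicate 1 gave 3 rises and 3 falls. With BB2-282, 7 rose, including the basement membrane genes COL4A2 (0.94 ± 0.11) and COL4A1 (0.68 ± 0.11), and COL7A1 (0.71 ± 0.11). The median of this list was 0.21 with BB2-282, against 0.015 over all genes.

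**Figure D4:**
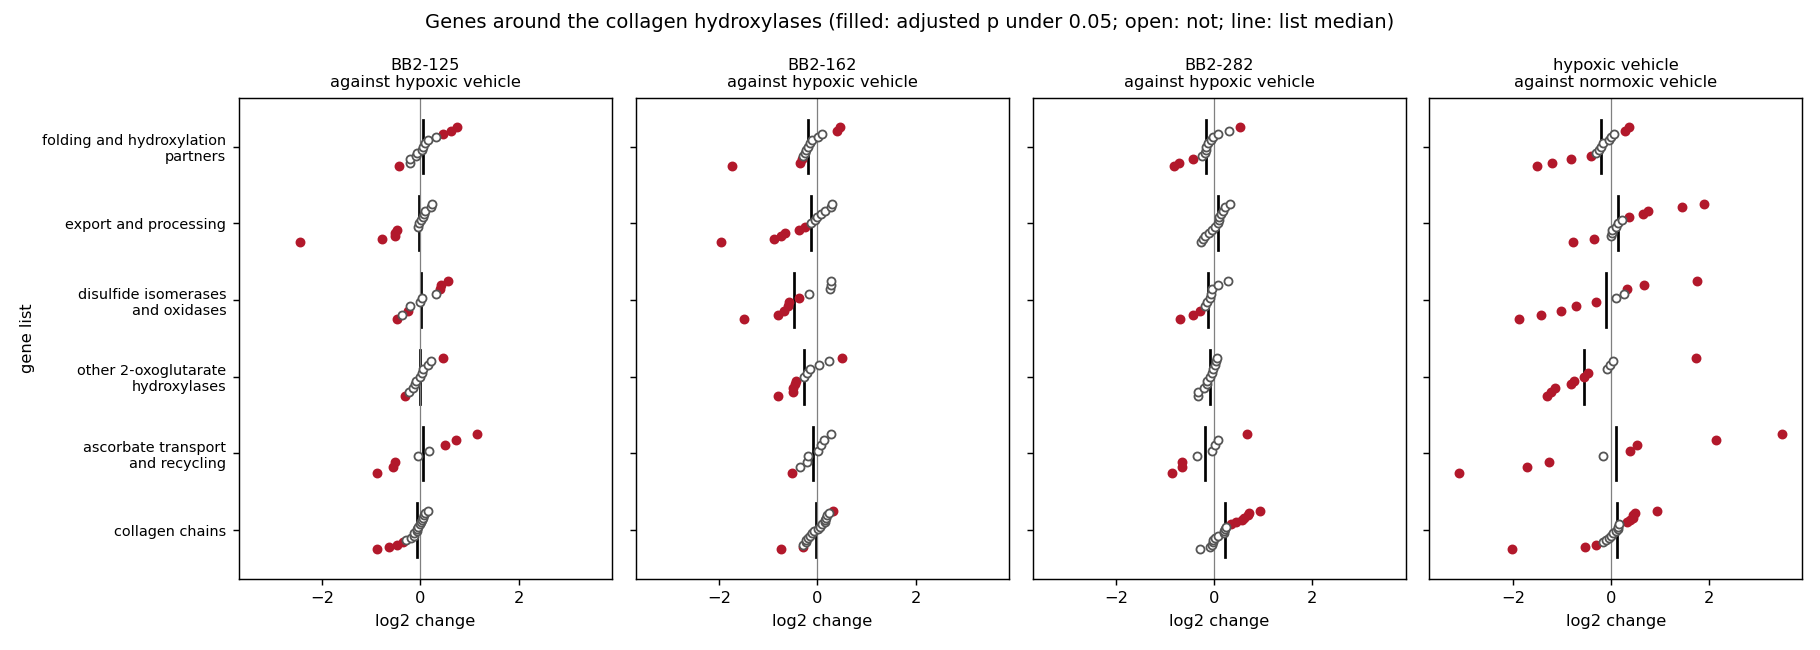
Log2 change (horizontal axis) of the tested genes of 6 lists around the hydroxylases (vertical axis), in each compound against the hypoxic vehicle and in the hypoxic against the normoxic vehicle; filled points passed the test and lines mark list medians. The leftmost point of the export list is TRAM2 with BB2-125 (-2.46) and BB2-162 (-1.97), and 7 collagen chain genes are filled with BB2-282, all to the right of 0.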

How the data were processed

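Total RNA of 15 A549 cultures was hybridised to arrays. The authors deposited 1 linear-scale intensity for each probe set and array, made with RMA per the submitters' processing notes. The version of that software and the genome build are not given in the sources used here. The log2 was taken here (0 missing values, 0 at or below 0). Of 28869 probe sets, 19310 had 1 gene symbol, 1752 several, and 7807 were not listed; symbols were updated through the Entrez ID for 19279. The filter kept genes above the array's own 25th percentile on at least 3 arrays and removed 2372 of 18377.

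limma 3.58.1 (R 4.3.3) tested the changes, with a mean for each of the 5 groups fitted over all 15 arrays (10 residual and 7.96 prior degrees of freedom), with 10 comparisons, each adjusted by Benjamini-Hochberg over all genes. The fit was tested on simulated data for hypoxic against normoxic vehicle: of 200 genes changed among 16005, it called 98% at a log2 change of 1 and 46% at 0.5, with 8 false calls. The simulated noise was independent between genes and arrays, and far fewer genes were changed than the 57.5% called in the data. These rates therefore need not hold for the reported tests.

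The hydroxylase genes and gene lists were chosen with earlier results of these data known. Named besides the 7 are, per list, up to 4 genes of lowest p in hypoxia and 3 in each compound against the hypoxic vehicle, and for each called hydroxylase gene the 3 with the smallest root mean square difference. COL1A1 stands on the collagen and fibroblast lists. No 2 arrays were identical (highest correlation 0.9961). In BB2-125 against the hypoxic vehicle alone, all same-number cultures deviated together (correlations 0.33, 0.29 and 0.19), a pairing taken from the data and not the labels. The number of arrays limits the precision. Alternatives were other filters, scalings, probe set rules, variance models, offsets and samples.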

Additional observations from a re-analysis of the deposited data

How the results depend on the processing

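Over 161 alternative counts of called hydroxylase genes, 153 stayed within 1.5 times the reported count. BB2-125 against BB2-162 had 2 called in a fit of these 2 groups, and 2 to 5 with single arrays left out. BB2-282 against the hypoxic vehicle had 1 to 2 with single arrays left out. The replicate number as a block left 5 called in hypoxia, 4, 6 and 2 for BB2-125, BB2-162 and BB2-282 against the hypoxic vehicle, and 5 for BB2-125 against normoxia, where P4HB was lost; it changed no other call of these genes in the fit of all arrays, and P4HA1 with BB2-125 was gained only where the block was joined to a fit of the 2 groups alone. Of the 70 values per gene and comparison, 10 were called only under at least 1 alternative and 7 calls ended under at least 1. Sign changes concerned values that had not passed, except those of P4HB by its other probe set: PLOD3 in hypoxia (-0.037 after median centring), PLOD2 between BB2-125 and BB2-162 (0.012 after median centring, 0.019 with array weights), and, after quantile normalization, PLOD1 with BB2-125 (0.043) and PLOD2 with BB2-282 (0.016) against the hypoxic vehicle, P4HA3 (0.094) and PLOD2 (0.016) with BB2-162 and PLOD3 with BB2-282 (0.017) against normoxia, P4HA2 between BB2-125 and BB2-162 (-0.046) and P4HB between BB2-125 and BB2-282 (-0.118). The other probe set of P4HB gave 0.191 in hypoxia, 0.038 with BB2-125 and 0.086 with BB2-282 against normoxia, and -0.048 between BB2-125 and BB2-282. With single arrays left out, the range included both signs for PLOD3 in hypoxia (-0.038 to 0.059), PLOD1 with BB2-125 against the hypoxic vehicle (-0.06 to 0.07), PLOD2 with BB2-162 against normoxia (-0.234 to 0.015), P4HA2 (-0.014 to 0.227) and PLOD2 (-0.137 to 0.112) between BB2-125 and BB2-162, and P4HB between BB2-125 and BB2-282 (-0.022 to 0.197). The cause was not tested. Median centring moved the median of all genes by over 0.1 for BB2-162 against normoxia alone (0.139 as reported, 0.028 centred), and, of the genes called, the higher ones to 28.2% for BB2-162 against the hypoxic vehicle (43.4% as reported), 74.4% for BB2-125 against BB2-162 (63.9%) and 32.9% for BB2-162 against BB2-282 (43.4%).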
